A study of Homo sapiens with 6 samples.

Results

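The 8 genes described here encode the liprins and the ELKS proteins: 4 liprin-alpha genes (PPFIA1, PPFIA2, PPFIA3 and PPFIA4), 2 liprin-beta genes (PPFIBP1 and PPFIBP2) and 2 ELKS genes (ERC1 and ERC2), out of 58395 gene rows. They were taken by symbol. The family was selected on the counts of PPFIA2, which differed between the 2 groups of this study, so the group difference of these genes is given as a description and without a test. RNA was measured in 6 clonal lines of HEK293, an established line of human embryonic kidney origin. In 3 of them, lines 4, 11 and 12, the cells overexpressed NOCT Δ(2-15)-3F, which is nocturnin (NOCT), a phosphatase of NADP and NADPH whose expression is rhythmic, without residues 2 to 15. The control lines 2, 8 and 9 overexpressed GST-3F, which is glutathione S-transferase with the same 3F tag, so all 6 lines carried an expression construct. Each line is 1 clone, so differences between clones and differences between constructs rest on 3 clones a group, and the spread between lines includes the spread between clones.

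Liprins are scaffold proteins with coiled coils at one end and a block of SAM domains at the other. In neurons, liprin-alpha proteins bind LAR-type receptor tyrosine phosphatases and ELKS proteins and help to assemble the presynaptic active zone, where vesicles are released. Outside neurons, PPFIA1, PPFIBP1 and ERC1 proteins gather at the cell edge beside focal adhesions, where microtubules are captured and vesicles are delivered. PPFIA2, PPFIA3 and ERC2 are known mainly as brain genes, while PPFIA1 and ERC1 are expressed in many tissues.

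The gene counts of the 6 libraries summed to 19729745 to 24422406 reads, and 26140 to 27682 genes had a read. The rows of the 2 constructs followed the labels: the GST construct had 46 to 88 reads in GST lines and 0 or 1 in NOCT lines, and the NOCT construct had 46 to 82 reads in NOCT lines and 3 to 7 in GST lines. Of 8 markers of HEK293 cells, 6 were at 1 TPM or more in every line (a level scaled for gene length and depth), among them VIM. The exceptions were NEFM and PAX2. PAX2, a kidney transcription factor, was at 1.80 to 2.45 TPM in GST lines and 0.370 to 0.618 TPM in NOCT lines. In the same list EYA1 and INA also separated the groups, with NOCT lines higher, at 3.78 to 4.32 against 5.93 to 10.5 TPM and at 9.89 to 16.2 against 19.7 to 34.4 TPM. The labels name no batch.

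PPFIA2 was the 1 gene of the 8 whose groups did not overlap. It had 155, 234 and 134 reads in GST lines 2, 8 and 9, and 47, 20 and 22 reads in NOCT lines 4, 11 and 12. Scaled for depth, these were 8.18, 10.9 and 6.59 CPM (read counts relative to the library total, scaled with edgeR's TMM factors) against 1.85, 0.897 and 1.10 CPM. Every NOCT line was below every GST line, and the lowest GST line was 3.57 times the highest NOCT line. Counting error alone gave exact Poisson 95% intervals of 5.52 to 7.81 CPM for GST line 9 and 1.36 to 2.46 CPM for NOCT line 4, the nearest pair. The group means were 8.55 ± 2.16 CPM (SD, n = 3) and 1.28 ± 0.50 CPM (SD, n = 3). The fitted difference was a log2 fold change of -2.72 ± 0.33 (SE), or 6.59-fold lower in NOCT lines. An interval of 1.96 SE either side ran from -3.37 to -2.07. This is 95% only under a normal approximation and is narrower than the few degrees of freedom of the fit would give. In these bulk samples, fewer cells with PPFIA2 RNA and less PPFIA2 RNA per cell cannot be told apart.

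The lines of 1 group also differed. The highest GST line had 1.65 times the PPFIA2 CPM of the lowest, and the highest NOCT line had 2.06 times that of the lowest. The SD of log2 CPM was 0.36 among GST lines and 0.53 among NOCT lines. These were at the 67.2 and 75.4 percentiles of the SDs of 1416 genes, the same genes for both groups, matched on mean level over all lines. The spread of PPFIA2 within a group was thus somewhat above the middle of those genes. PPFIA2 itself was above that mean level in GST lines and below it in NOCT lines. The percentiles therefore do not compare it with genes of as many reads in either group.

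By edgeR's quasi-likelihood test with adjustment over 17261 genes, 0 of the 8 genes passed an adjusted p of 0.05, where 0.0579% of all genes tested did (0.0232% higher and 0.0348% lower in NOCT lines). Of the 8, 1 was under an unadjusted p of 0.05, as were 13.9% of all genes tested. In 5 of 9 alternative edgeR fits PPFIA2 was called. Over all genes these fits called 12 of 17261 with DESeq2 size factors, 22 of 17261 with spike-in totals and 888 of 34539 with no filter. Leaving out NOCT line 4 gave 13 of 17611, and leaving out NOCT line 12 gave 970 of 17882. DESeq2 run on the same counts called 1 of the 8 (PPFIA2), with 3.41% of all genes called, and the authors' deposited table also called PPFIA2 alone, with 2.87% of its genes called. Groups without overlap and with NOCT lines lower, as for PPFIA2, were found in 9.54% of all genes tested, and with NOCT lines higher in 10.5%, which is 3455 of 17261 genes over both directions. The authors' deposited table gives PPFIA2 a shrunken log2 fold change of -1.81 (SE 0.22). Since this contrast chose the genes, these counts describe PPFIA2 and support nothing further. All 8 genes passed the filter on low counts.

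**Figure D1:**
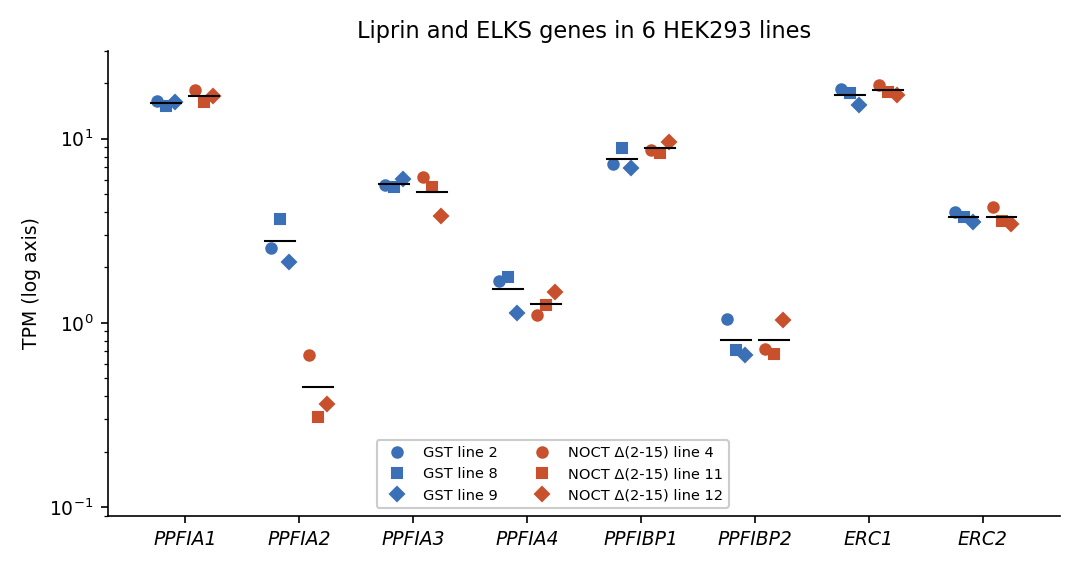
TPM on a log axis for the 8 genes in each of the 6 lines. Each point is 1 line, blue for GST and orange for NOCT Δ(2-15), and the short bar is the group mean. PPFIA2 lies between 2.13 and 3.69 TPM in GST lines and between 0.310 and 0.667 TPM in NOCT lines, and the other 7 genes overlap between groups.

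PPFIA2 lies at chr12:81257975-81759553 on the minus strand (GRCh38, GENCODE release 29), spans 501579 bases and holds 43 exon blocks with 8573 exonic bases. The promoter windows of RefSeq (GRCh38.p14, 250 bases before to 50 after a start) matched all 8 genes. Those of PPFIA2, PPFIA1 and PPFIA4 are shown to set the gene with separated groups beside the most abundant and the least abundant other liprin-alpha genes. Capitals mark the 5 motifs searched on both strands: CACGTG (E-box), TGACGTCA (CRE), GGGCGG (GC box), CCAAT and TATAAA. No motif overlaps another of these in the 3 windows.
PPFIA2 at chr12:81759301-81759600, minus strand: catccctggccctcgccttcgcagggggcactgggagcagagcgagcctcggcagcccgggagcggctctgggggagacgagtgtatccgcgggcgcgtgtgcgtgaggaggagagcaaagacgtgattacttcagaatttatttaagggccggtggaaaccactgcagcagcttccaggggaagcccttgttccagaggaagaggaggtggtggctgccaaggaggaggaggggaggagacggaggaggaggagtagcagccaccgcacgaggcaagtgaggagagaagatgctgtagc
PPFIA1 at chr11:70270440-70270739, plus strand: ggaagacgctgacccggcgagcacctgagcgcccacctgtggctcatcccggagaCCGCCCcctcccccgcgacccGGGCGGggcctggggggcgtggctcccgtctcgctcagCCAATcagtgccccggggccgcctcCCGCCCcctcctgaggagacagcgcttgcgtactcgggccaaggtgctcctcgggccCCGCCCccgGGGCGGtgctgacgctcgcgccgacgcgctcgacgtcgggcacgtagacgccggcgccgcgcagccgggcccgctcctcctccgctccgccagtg
PPFIA4 at chr1:203026241-203026540, plus strand: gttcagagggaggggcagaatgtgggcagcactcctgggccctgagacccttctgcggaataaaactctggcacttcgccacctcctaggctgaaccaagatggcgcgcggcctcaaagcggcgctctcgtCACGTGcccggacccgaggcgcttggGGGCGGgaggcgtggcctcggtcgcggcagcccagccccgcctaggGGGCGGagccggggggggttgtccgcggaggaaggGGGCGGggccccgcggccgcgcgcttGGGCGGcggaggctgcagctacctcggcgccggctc

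The PPFIA2 window has 62.7% GC and 17 CpG pairs and holds none of the 5 motifs, which says only that these letters are not in this window. The PPFIA1 window has 77.7% GC, 42 CpG pairs, 5 GC boxes and 1 CCAAT, and the PPFIA4 window has 33 CpG pairs, 4 GC boxes and 1 E-box. The windows at the first start of the other 5 genes each hold at least 1 of the motifs. Over 35116 promoter windows of the same length, the median GC was 58.7% and the median number of CpG pairs was 14. GGGCGG was present in 45.0% of those windows, CCAAT in 34.6%, TATAAA in 11.5%, CACGTG in 7.26% and TGACGTCA in 1.85%. PPFIA2 has further RefSeq windows inside the gene at chr12:81598322-81598621 and chr12:81369320-81369619. The deposited counts are summed per gene and do not say which start was used.

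Among the other liprin-alpha genes, PPFIA1 (chr11:70270700-70385312), the broadly expressed member, was at 16.0, 15.0 and 15.8 TPM in GST lines 2, 8 and 9 and 18.4, 15.9 and 17.0 TPM in NOCT lines 4, 11 and 12. The groups overlapped, and the log2 fold change was 0.04 ± 0.10 (SE). PPFIA3 (chr19:49119389-49151026), a presynaptic liprin-alpha of the brain, was at 5.60, 5.46 and 6.03 TPM in GST lines and 6.20, 5.46 and 3.79 TPM in NOCT lines. Its level in NOCT line 12 was below the other 5 lines, which lay close together, and its log2 fold change was -0.24 ± 0.18. PPFIA4 (chr1:203026498-203078740), the liprin-alpha gene of lowest level in GST lines, was at 1.69, 1.77 and 1.14 TPM against 1.10, 1.25 and 1.46 TPM. GST line 9 sat among the NOCT lines, and the log2 fold change was -0.35 ± 0.25.

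The 4 liprin-alpha genes summed to 25.9, 25.9 and 25.1 TPM in GST lines and 26.3, 22.9 and 22.6 TPM in NOCT lines, and these overlapped. PPFIA2 made up 9.91%, 14.2% and 8.50% of that sum in GST lines and 2.53%, 1.35% and 1.61% in NOCT lines. PPFIA1 made up 57.9% to 62.9% in GST lines and 69.4% to 75.2% in NOCT lines. Without PPFIA2, the other 3 genes summed to 22.8 ± 0.55 TPM in GST lines and 23.5 ± 1.88 TPM in NOCT lines (SD, n = 3 each), which overlapped. Of those 3 genes, PPFIA1 made up 68.7%, 67.5% and 68.8% in GST lines and 71.6%, 70.3% and 76.4% in NOCT lines. The share of PPFIA1 was thus higher in every NOCT line than in any GST line with or without PPFIA2 in the sum, by less without it.

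**Figure D2:**
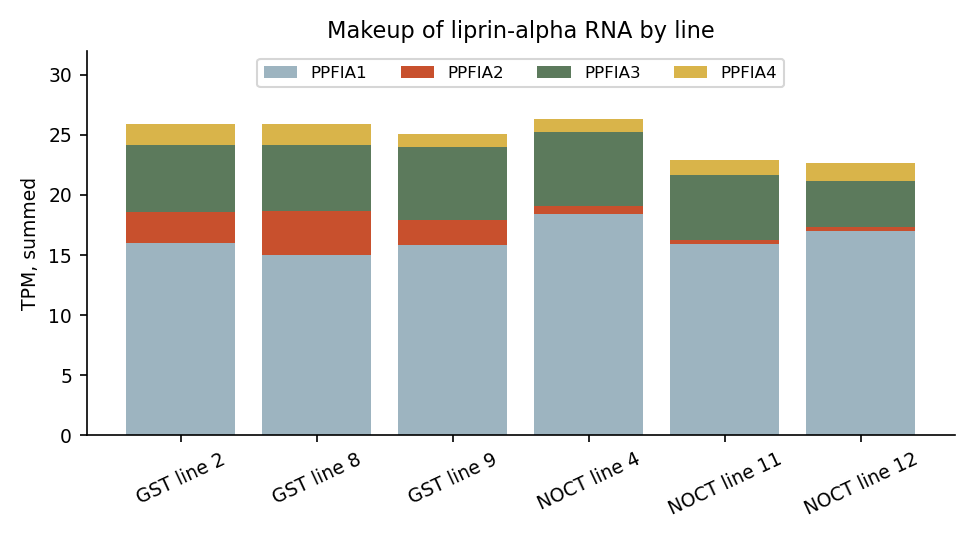
Summed TPM of the 4 liprin-alpha genes in each line, stacked by gene. The PPFIA2 segment is 8.50% to 14.2% of the bar in GST lines and 1.35% to 2.53% in NOCT lines, while the bars reach 25.1 to 25.9 TPM and 22.6 to 26.3 TPM.

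Of the liprin-beta genes, PPFIBP1 (chr12:27523431-27695564), whose protein binds PPFIA1 protein at the cell edge, was at 7.31, 8.94 and 6.95 TPM in GST lines and 8.73, 8.35 and 9.63 TPM in NOCT lines. The groups overlapped, and the log2 fold change was 0.12 ± 0.13. PPFIBP2 (chr11:7513298-7657127), the other liprin-beta, was at 1.05, 0.716 and 0.667 TPM against 0.721, 0.678 and 1.03 TPM. GST line 2 and NOCT line 12 were the high lines, 1 in each group, and with 47 to 71 reads a line the log2 fold change was -0.09 ± 0.31. PPFIBP1 gave 87.5% to 92.6% of liprin-beta TPM in GST lines and 90.3% to 92.5% in NOCT lines.

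ERC1 (chr12:990509-1495933), which binds RIM and liprin-alpha proteins and is also known as a partner of the IKK kinase complex, was the most abundant of the 8 genes by median TPM. It was at 18.7, 17.7 and 15.1 TPM in GST lines and 19.5, 18.0 and 17.3 TPM in NOCT lines, with a log2 fold change of 0.0016 ± 0.11. Its SD of log2 CPM among NOCT lines was 0.03, at the 3.43 percentile of 2160 genes of similar level, and among GST lines 0.18, at the 80.7 percentile. ERC2 (chr3:55508308-56468363), the brain ELKS gene, was at 4.00, 3.78 and 3.55 TPM against 4.25, 3.55 and 3.44 TPM. Its groups overlapped, and the log2 fold change was -0.10 ± 0.15. ERC1 gave 81.0% to 82.4% of ELKS TPM in GST lines and 82.1% to 83.5% in NOCT lines.

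**Figure D3:**
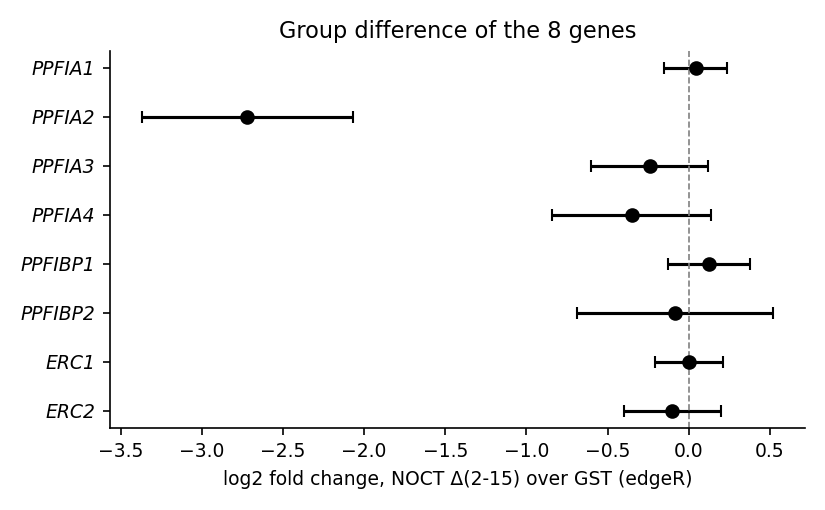
Log2 fold change of each of the 8 genes, NOCT Δ(2-15) over GST, from the edgeR fit, with intervals of 1.96 SE either side (95% under a normal approximation). PPFIA2 is at -2.72, and the intervals of the other 7 genes, which are centred between -0.35 and 0.12, include 0.

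Over the 8 genes, 3 fold changes were above 0 and 5 below, with a median log2 fold change of -0.09 beside 0.0046 over all genes tested. The intervals of the 7 other than PPFIA2 all included 0, which does not show that their levels were equal. In GST lines the order by median TPM was ERC1, PPFIA1, PPFIBP1, PPFIA3, ERC2, PPFIA2, PPFIA4 and PPFIBP2. The ranges of neighbours in that order over the 3 lines did not overlap, except those of ERC1 and PPFIA1 and those of ERC2 and PPFIA2. In NOCT lines PPFIA2 stood last. Its highest line, NOCT line 4 at 0.667 TPM (47 reads), was just below the lowest of PPFIBP2, NOCT line 11 at 0.678 TPM (49 reads). That gap is within counting error. The other 7 stood in the same order, with overlapping ranges for ERC1 and PPFIA1 and for PPFIA3 and ERC2. Within a line, PPFIA2 had 1.51, 2.09 and 1.87 times the TPM of PPFIA4 in GST lines 2, 8 and 9. That ratio was 0.605, 0.249 and 0.249 in NOCT lines 4, 11 and 12.

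Transcripts of other genes overlap 6 of the 8, and the annotation lists 24 such rows, of which 13 had no read. The row with most reads among those overlapping PPFIA2 was ACSS3, a gene of the opposite strand that covers the last 3231 bases of PPFIA2, with 45, 5 and 3 reads in GST lines 2, 8 and 9 and 19, 7 and 4 in NOCT lines 4, 11 and 12. PPFIA2-AS1, antisense to PPFIA2, had 0 reads in every line, and AC079363.1, a pseudogene inside PPFIA2 on the same strand, had 3, 4 and 0 reads in GST lines and 0 in NOCT lines. The counting kept strand: of 672 genes lying wholly inside an exon of the opposite strand, 133 had 10 reads or more, against 4 of 740 inside an exon of the same strand. An antisense gene of ERC1, AC004803.1, had 97, 94 and 110 reads in GST lines and 92, 85 and 72 in NOCT lines.

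On chromosome 12, the nearest tested genes on either side of PPFIA2 were LIN7A and CCDC59. LIN7A, at chr12:80792520-80937925 on the same strand and 320.049 kb away, encodes a PDZ scaffold protein that forms a complex with CASK, itself a liprin-alpha partner. It was at 17.4, 21.4 and 16.4 CPM in GST lines 2, 8 and 9 and 5.58, 3.68 and 6.93 CPM in NOCT lines 4, 11 and 12. The groups did not overlap, and the log2 fold change was -1.77 ± 0.24, with an edgeR adjusted p of 0.0563. It passed in 3 of 10 alternative fits, over which the adjusted p ran from 1.9e-09 with DESeq2 to 0.287, and leaving out NOCT line 12 gave 0.0036. PPFIA2 was 1.12 log2 units below LIN7A in GST lines (difference of mean log2 CPM, -1.12) and further below it in NOCT lines (-2.07). CCDC59, 464.127 kb away on the other side, was at 65.1, 52.7 and 62.9 CPM against 56.2, 53.3 and 62.8 CPM, with a log2 fold change of -0.07 ± 0.12 and an edgeR adjusted p of 0.823.

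In the wider stretch of chromosome 12, the median level of the neighbours overlapped between the groups. Single genes differed in both directions, and the largest differences were with NOCT lines lower. A median over 20 genes would not show a difference limited to a few of them. Over the 20 nearest genes with a mean of 1 CPM or more, 10 on each side and together spanning chr12:76763588-88142216, the median log2 level relative to the 6-line mean was 0.11, 0.04 and -0.04 in GST lines and 0.08, -0.11 and -0.0013 in NOCT lines. Of these 20 genes, 10 had fold changes above 0 and 10 below. Apart from LIN7A they ran from -2.02 for SYT1, a vesicle calcium sensor, to 0.62 for PPP1R12A-AS1, with a median of 0.01. Groups without overlap occurred in 4 of the 20 with NOCT lines lower: LIN7A (log2 fold change -1.77), NAV3 (-0.99), CSRP2 (-0.56) and TMTC2 (-0.52). They occurred in 2 of the 20 with NOCT lines higher, PPP1R12A-AS1 (0.62) and E2F7 (0.18). The shares over all genes tested were 9.54% lower and 10.5% higher. SYT1 was uneven between lines, at 15.3, 5.11 and 7.57 CPM in GST lines and 5.90, 0.808 and 0 CPM in NOCT lines. Around the other 7 genes, the same median over 20 neighbours differed between groups by -0.07 (ERC2) to 0.17 (PPFIA3).

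**Figure D4:**
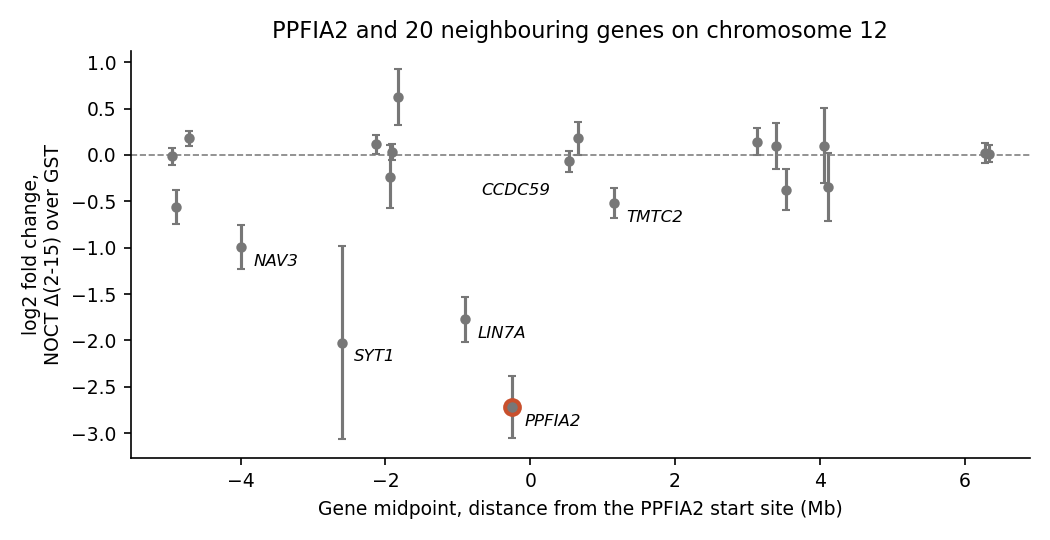
Log2 fold change, NOCT Δ(2-15) over GST, of PPFIA2 (orange) and its 20 nearest tested genes against the distance of each gene's midpoint from the PPFIA2 start site in Mb; bars are 1 SE either side. PPFIA2 is at -2.72 and LIN7A at -1.77, and CCDC59 on the other side is at -0.07.

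The 5 genes whose profiles over the 6 lines were closest to that of PPFIA2 were PYCR1, BRSK2, LIN7A, GRIK3 and GALNT13, by the root mean square difference of centred log2 CPM among 13633 genes. These differences were 0.54, 0.55, 0.57, 0.58 and 0.58 log2 units, against a median of 1.44 over all candidates. PYCR1, an enzyme of proline synthesis, was at 9.08, 15.1 and 13.6 CPM in GST lines and 4.64, 2.92 and 1.46 CPM in NOCT lines. BRSK2, a kinase of neuronal polarity, was at 20.8, 14.7 and 16.8 CPM against 7.04, 3.77 and 4.12 CPM. GRIK3, a kainate receptor subunit, was at 1.32, 3.72 and 1.97 CPM against 0.236, 0.359 and 0.201 CPM. At those levels its values in NOCT lines rest on few reads. GALNT13, a glycosyltransferase, was at 39.7, 41.9 and 28.9 CPM against 5.90, 5.79 and 12.4 CPM. All 5 separated the groups in the direction of PPFIA2, which the choice by likeness fixes. They shared its libraries, and over 6 lines in 2 groups the likeness is mostly that of the group difference.

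The other 7 liprin and ELKS genes were not among the close profiles. Their root mean square differences from PPFIA2 ran from 1.28 for PPFIA4 to 1.48 for PPFIBP1, and 11.0% of candidate genes were closer to PPFIA2 than PPFIA4 was. For PPFIBP1 that share was 64.1%.

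**Figure D5:**
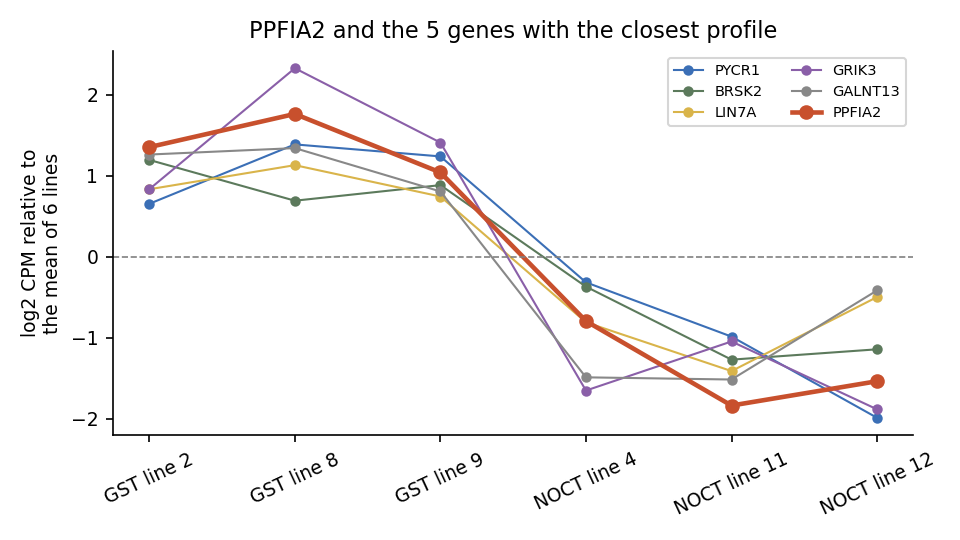
Log2 CPM relative to the mean of the 6 lines for PPFIA2 (thick orange line) and the 5 genes of closest profile; lines only join the points of 1 gene, since the cell lines have no order. All 6 genes lie above 0 in GST lines and below 0 in NOCT lines, with root mean square differences from PPFIA2 of 0.54 to 0.58.

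Genes that work with liprins were read from 4 lists. Of 22 liprin binding partners and members of the same transport complexes, all 22 were tested, and edgeR called 0 higher and 0 lower; 0 were higher and 3 lower at an unadjusted p of 0.05, DESeq2 called 1 (LIN7A, lower), and the list's fold changes had a median of -0.03 (log2). After LIN7A, the smallest p belonged to PTPRS, a LAR-type receptor phosphatase that binds liprin-alpha. PTPRS was at 76.5, 83.1 and 84.2 CPM in GST lines and 64.3, 67.8 and 64.1 CPM in NOCT lines. The groups did not overlap, as in 5 of the 22 (and in 3455 of all 17261 genes tested, a similar share), and the log2 fold change was -0.31 ± 0.09 with an edgeR adjusted p of 0.204. For GRIP2, a PDZ scaffold of glutamate receptors, the log2 fold change was -0.98 ± 0.32 at an edgeR adjusted p of 0.245.

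Of 19 genes of the presynaptic active zone and vesicle release, 16 were tested, and edgeR called 0 in either direction, with 2 higher and 2 lower at an unadjusted p of 0.05. RIMBP2, UNC13C and CACNA1A had too few reads. Their fold changes had a median of -0.13 (log2), and 2 of the 16 separated the groups, beside 3455 of all 17261 genes tested. RIMS2, an active zone scaffold that binds ELKS and liprin-alpha proteins, was at 5.91, 2.97 and 2.36 CPM in GST lines and 15.6, 9.38 and 6.03 CPM in NOCT lines. NOCT line 12 was just above GST line 2, and the log2 fold change was 1.47 ± 0.43 with an edgeR adjusted p of 0.218. TSPOAP1, a RIM-binding protein, was at 0.581, 0.325 and 0.393 CPM in GST lines and 12.0, 5.88 and 0.452 CPM in NOCT lines, so 2 of the 3 NOCT lines stood apart and NOCT line 12 lay within the GST range. Its log2 fold change was 3.82 ± 0.99 with an edgeR adjusted p of 0.191, over a GST level below 1 CPM. The authors' deposited table gives shrunken log2 fold changes of 0.87 (SE 0.23) for RIMS2 and 0.43 (SE 0.17) for TSPOAP1. DESeq2 called both genes higher, with adjusted p of 0.0191 for RIMS2 and 0.0296 for TSPOAP1. Without NOCT line 12, edgeR also called both, with adjusted p of 0.0348 and 0.0015. Over 10 alternatives the adjusted p ran from 0.0016 to 0.590 for RIMS2 and from 4.4e-06 to 0.589 for TSPOAP1.

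The platform at the cell edge that holds PPFIA1, PPFIBP1 and ERC1 proteins was read from 14 genes, 13 of them tested. Here edgeR called 0 in either direction, 2 were higher and 1 lower at an unadjusted p of 0.05, DESeq2 called 1, and the list's fold changes had a median of 0.0031 (log2). PHLDB2, the membrane-bound LL5-beta protein that recruits ELKS, was at 20.2, 20.2 and 16.5 CPM in GST lines and 60.9, 40.2 and 27.3 CPM in NOCT lines. The groups did not overlap, as in 5 of the 13 (beside 3455 of all 17261 genes tested), and the log2 fold change was 1.18 ± 0.27 with an edgeR adjusted p of 0.157. DESeq2 gave PHLDB2 an adjusted p of 0.0013 and edgeR without NOCT line 12 gave 0.0061, within a range of 2.4e-05 to 0.570 over 10 alternatives. KANK2, which links talin to this platform, was at 0.36 ± 0.12 on the log2 fold scale (edgeR adjusted p = 0.252), and BICD2, a dynein adaptor for RAB6 vesicles, at -0.36 ± 0.14 (edgeR adjusted p = 0.318).

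Of 12 genes of the IKK and NF-kB pathway, which ERC1 protein is known to join, all were tested and edgeR called 0. None was under an unadjusted p of 0.05, DESeq2 called 0, and the list's median was 0.12 (log2). In 3 of the 12 the groups did not overlap, as in 3455 of all 17261 genes tested, a similar share. TAB1, an adaptor of the kinase MAP3K7, was at 0.24 ± 0.11 on the log2 fold scale (edgeR adjusted p = 0.392), and MAP3K7 itself at 0.12 ± 0.09 (edgeR adjusted p = 0.565). NFKBIB, an inhibitor of NF-kB, was at 0.59 ± 0.37 (edgeR adjusted p = 0.519), which became 0.93 (edgeR adjusted p = 0.0357) without NOCT line 12, within a range of 0.0357 to 0.886 over 10 alternatives.

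Markers of other cell types were read beside PPFIA2. The 7 neuronal markers summed to 11.4 to 14.5 TPM in GST lines and 14.4 to 25.3 TPM in NOCT lines. RBFOX3, a defining marker of mature neurons, was at 0.148 TPM or less in every line. Of the 7, 3 were at 1 TPM or more in every line: MAP2, SYP and GAD1. MAP2 was at 2.37 to 3.95 TPM in GST lines and 4.37 to 8.84 TPM in NOCT lines, without overlap. SYP also separated the groups, at 2.61 to 3.78 against 3.84 to 7.53 TPM. GAD1 overlapped, at 4.72 to 5.57 against 5.46 to 9.76 TPM, as did the rest of the list. The 4 epithelial markers summed to 113 to 127 TPM in GST lines and 201 to 361 TPM in NOCT lines, without overlap, and EPCAM was at 9.87 to 36.2 TPM against 87.0 to 112 TPM. KRT8 and KRT18 also separated the groups with NOCT lines higher. CDH1 overlapped, at 0.897 to 3.35 TPM against 1.77 to 4.92 TPM. The 5 fibroblast markers summed to 3.28 to 3.79 TPM against 2.27 to 8.87 TPM. Most of that sum was COL1A1, at 2.79 to 3.00 TPM in GST lines and 2.14 to 7.28 TPM in NOCT lines, while COL1A2 was at 0. The 5 blood markers stayed at 0.383 TPM or less in sum, with CD3E and HBB at 0. The epithelial sum, MAP2 and SYP were thus higher in NOCT lines, while PPFIA2 was lower. The part of these markers in the result was not tested.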

How the data were processed

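Whole reads per gene (counts) were deposited by the authors, 1 table a line. The submitters' processing notes name FastQC 0.10.1, MultiQC 1.0, cutadapt 1.8.1, Trimmomatic 0.33, STAR 2.5.2b, HTSeq 0.6.1p1, DESeq2 1.16.1 and GRCh38. Per the labels' protocols, lines grew for 3 days (2 dishes of 10 cm each), and 5 µg of RNA (RIN 9.6 to 10.0) with spike-ins gave strand-specific, ribosomal RNA-depleted libraries of 50 bp reads. TPM values were also deposited by the authors. Their deposited comparison gives a mean normalised count (a signal), log2 fold changes, a test statistic (a score, not used here) and p-values. The file name calls the fold changes shrunken, and their direction was read from the construct rows.

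Rows that name no gene held 42.9% to 47.1% of the reads of a file and were left out, as were 92 spike-ins and 2 construct rows. Counts were fitted with edgeR 4.0.16 (filterByExpr, TMM, quasi-likelihood test, Benjamini-Hochberg adjustment over 17261 genes, R 4.3.3), with group as the only term. A prior count of 0.5 was used for log2 CPM. Coordinates came from GENCODE release 29, which matched 58275 of 58395 genes, and promoters from RefSeq. Scripts were tested on simulated data. The labels call the lines biological replicates, each 1 clone.

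The named genes were all 8 members of the family, the 3 genes of smallest p in each list and any called, the 5 closest profiles, and the tested genes next to PPFIA2. Further genes around PPFIA2, and those not tested, were named after their values were seen. Of the genes this rule names, 1 is not reported here. The members and the lists were chosen with earlier results of these data known. Alternatives were DESeq2 1.42.0, its size factors, spike-in totals as library sizes, no filter, log2(TPM + 1) and a smaller pseudocount, other numbers of neighbours, and leaving out each line.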

Additional observations from a re-analysis of the deposited data

How the results depend on the processing

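PPFIA2 stayed lower in NOCT lines under all 13 alternatives, with a log2 fold change of -3.09 to -1.38. The value nearest 0, -1.38, came on the log2(TPM + 1) scale, where the pseudocount is close to the level of the gene. Leaving out 1 line at a time gave -3.09 to -2.52. PPFIA3, PPFIA4 and PPFIBP1 kept their sign in all 13, PPFIA1 and ERC2 in 12, PPFIBP2 in 7 and ERC1 in 6. Spike-in totals as library sizes put the centre of all tested genes at a log2 value of 0.15 and gave 0.19 for PPFIA1, 0.15 for ERC1 and 0.04 for ERC2.

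Over all genes, edgeR called 10, against 508 with DESeq2, 22 with spike-in totals and 888 with no filter. Leaving out 1 line gave 0 to 970 calls: 0 without GST line 9 (1488 genes at an unadjusted p under 0.05), 1 without NOCT line 11, 5 without GST line 2, 6 without GST line 8, 13 without NOCT line 4 and 970 without NOCT line 12. Calls in the active zone list were 0, and 2 with DESeq2, 3 with no filter and 0 to 2 without 1 line. Calls among liprin binding partners and in the cell-edge platform list were each 0, and 1 with DESeq2, 1 with no filter and 0 to 1 without 1 line. In the NF-kB list, leaving out 1 line gave 0 to 1. Among the runs that left out 1 line, each list call came without NOCT line 12. The cause was not tested. No paired analysis was possible because the groups share no line number. With 20 to 47 reads of PPFIA2 in NOCT lines, counting error limits how finely those lines can be told apart.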
